A study of Rattus norvegicus with 10 samples.

Results

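Muscle-silent windows with adipose peaks are stretches of 100 kb in which none of 5 gastrocnemius muscle libraries had a listed ATAC-seq peak while each of 5 white adipose libraries had at least 1. Chromosomes 1 to 20 were divided into 26193 such windows, counted from position 1 up to the last listed peak of each chromosome, and a peak was placed by its midpoint. Of these, 1212 windows (4.63%) met both conditions. The windows were thus chosen on the presence of peaks, so their absence in muscle and presence in adipose are a description and were not tested. In number of peaks, every adipose library stood above every muscle library in all 1212 by the choice itself. Among the 25798 windows with a peak in any library, 36.0% were ordered in this way.

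Both tissues came from Fischer 344 rats labelled male and 8 months old, without a treatment or an altered gene. Abdominal white adipose tissue and gastrocnemius muscle, a mixed-fibre muscle of the hind limb, gave 5 libraries each. The series design speaks of 9 samples per tissue and of material either from single animals or pooled over 15, without saying which library is which. The p-values therefore cover only how these libraries scatter, which may be technical in part. A peak is a distinct interval in the list the authors called for that library on build rn6, and no gene annotation or sequence of that build was used here, so windows are named by position and the tissue labels could not be held against marker genes.

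In ATAC-seq a transposase inserts sequencing adapters into DNA that is not wrapped tightly in nucleosomes, and the cut fragments pile up at promoters, enhancers and other open sites. Long stretches without such sites are common where genes are sparse or where the genes present are shut in the tissue. Muscle tissue is dominated by the many nuclei of its fibres, whereas white adipose tissue holds adipocytes together with vessel, stromal and immune cells. In such bulk tissue, fewer cells of a type with an open site and less opening per cell cannot be told apart.

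The lists differ in length and in depth of calling. Adipose libraries had between 239975 and 256339 peaks on chromosomes 1 to 20 and muscle libraries between 161606 and 186204. The muscle lists ran down to a −log10 p of 2.00, and the adipose lists ended between 3.26 and 4.27. The silence of muscle was thus judged on the more permissive lists. As deposited, before rows with the same interval were joined, the adipose lists held 298639 to 299093 rows and the muscle lists 227958 to 251869. Whether the adipose lists were cut at a number of rows was not tested. Read depth is unknown from these lists, so no counting interval is given. Adipose replicates 2, 3 and 4 had 0, 0 and 1 peaks on chromosome Y although labelled male, against 31 and 45 in adipose replicates 1 and 5 and 16 to 24 in muscle. When adipose was represented by replicates 1 and 5 alone, 1449 windows met the conditions.

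Silence was common in single muscle libraries and less common in all 5 together. Muscle replicate 1 had no peak in 4061 windows, and muscle replicates 2, 3, 4 and 5 had none in 6854, 6540, 7098 and 7499. Each adipose library was empty in far fewer windows, between 722 in adipose replicate 1 and 1035 in adipose replicate 5. All 5 muscle libraries were empty together in 2258 windows. Of these, 395 were empty in adipose as well, 108, 121, 168 and 254 had peaks in 1, 2, 3 and 4 adipose libraries, and 1212 (53.7%) had peaks in all 5. The opposite kind, windows with no adipose peak and a peak in every muscle library, numbered 2.

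One library set much of the number. Muscle replicate 1 had the longest of the muscle lists. Without it 2614 windows met the conditions, and without another muscle library between 1337 and 1500 did. Leaving out an adipose library, which relaxes the second condition, gave between 1241 and 1288.

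Just outside the choice lay 1435 windows with peaks in every adipose library and a single muscle peak. That peak was in muscle replicate 1 in 667 of them, and in muscle replicates 2 to 5 in 231, 238, 190 and 109. Most of these single muscle peaks were weak. Their median −log10 p was 3.48, against 8.78 over all muscle peaks on the same chromosomes. A total of 1046 (72.9%) lay under 4.27, the highest point at which any of the 10 lists ended, and 60 (4.18%) reached a −log10 q of 5, the level called strong here. The windows had a median of 42 adipose peaks summed over the 5 libraries, and the chosen windows 35.

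On the adipose side, 254 windows without a muscle peak had peaks in 4 of the 5 adipose libraries, with a median sum of 11. The library without a peak was adipose replicate 3 in 76, adipose replicate 5 in 74, adipose replicate 2 in 43, adipose replicate 1 in 32 and adipose replicate 4 in 29. Just inside, 269 of the 1212 windows had a library with a single peak, with a median sum of 17. At the other end, 393 windows had at least 5 peaks in each adipose library, with a median sum of 50 and a highest of 86.

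The density of adipose peaks in the muscle-silent windows was below that of the chromosomes as a whole. Adipose replicates 1 to 5 had 9821, 8027, 6354, 10214 and 8816 peaks there, or 8.10, 6.62, 5.24, 8.43 and 7.27 per window. This came to 7.13 ± 1.27 peaks per window (SD, n = 5), against 9.30 ± 0.274 over all windows. Adipose replicate 3 was the sparsest, at 0.571 of its own mean over all windows, and adipose replicate 4 the densest, at 0.920. The medians were 8, 6, 5, 8 and 7 peaks and the highest windows held 23, 20, 18, 23 and 25. The windows made up 4.63% of the sequence counted and held 3.55 ± 0.604% of the adipose peaks.

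**Figure D1:**
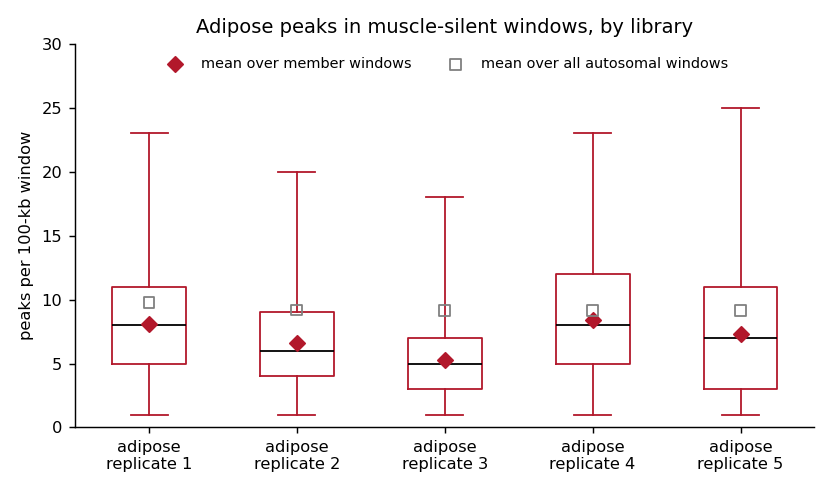
Peaks per 100-kb window (vertical axis) in the 1212 muscle-silent windows for each adipose library: boxes give quartiles and median, whiskers the lowest and highest window, diamonds the mean and open squares the library's mean over all windows of chromosomes 1 to 20. In all 5 libraries the diamond lies below the square, with the narrowest gap in adipose replicate 4 (8.43 against 9.16) and the widest in adipose replicate 3 (5.24 against 9.18).

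Libraries ranked the windows alike to a moderate degree. Across the 1212 windows the number of peaks in 2 adipose libraries had a Spearman correlation between 0.362 (replicates 3 and 5) and 0.613 (replicates 4 and 5), with a median of 0.459. Pearson's r ran from 0.354 to 0.601. Windows are not independent replicates, and those of one chromosome share base composition and neighbours. In the 16390 windows with peaks in all 10 libraries the Spearman values ran from 0.621 to 0.734.

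The windows that were dense in every adipose library lay on several chromosomes, most often on chromosome 16, which had the first 3. That chromosome held 90 of the 1212 windows. Chromosome 16 at 35000001 to 35100000 had 16, 14, 14, 16 and 19 peaks in adipose replicates 1 to 5. On the same chromosome, the window at 52200001 to 52300000 had 13, 13, 13, 18 and 19, and that at 33100001 to 33200000 had 12, 16, 13, 22 and 19. In these 3 windows no library fell under 12 peaks, while the muscle libraries had none. Chromosome 2 at 175500001 to 175600000 had 17, 13, 11, 22 and 16 peaks, and at 69700001 to 69800000 it had 15, 12, 11, 18 and 15. Chromosome 4 at 54200001 to 54300000 had 17, 15, 11, 15 and 11. Adipose replicate 3 was the lowest or shared the lowest place in each of these last 3 windows. Chromosome 14 at 98100001 to 98200000 had 12, 14, 11, 15 and 15 peaks, and chromosome 11 at 8400001 to 8500000 had 12, 15, 11, 16 and 12. Chromosome 16 at 28200001 to 28300000 had 13, 18, 11, 13 and 11. Chromosome 18 at 12900001 to 13000000 had 14, 12, 11, 14 and 14, the narrowest spread of the 10 named windows (13.0 ± 1.41, SD, n = 5).

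Few of these peaks were strong. In the 10 named windows the strong ones made up between 8.86% and 17.4% of the adipose peaks. Adipose replicate 4 alone had the highest number of them in 8 of the 10, for example 9 of 12 on chromosome 4 and 8 of 11 on chromosome 11. A position joined from overlapping peaks and holding a peak of all 5 adipose libraries was found 3 times on chromosome 16 at 35000001. This was the only one of the 1212 windows with 3. Such a position was found 2 times each on chromosome 2 at 69700001 and chromosome 4 at 54200001, and not at all in 4 of the 10.

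Most muscle-silent windows had no other one directly beside them. The 1212 windows formed 998 runs of directly adjacent windows, of which 836 were a single window, 123 were pairs, 29 were of 3 windows, 7 of 4 and 3 of 5. Runs of at least 2 windows held 376 windows (31.0%), while the muscle-silent windows made up 4.63% of all windows. Clustering was not tested. A run with a muscle peak on both sides (996 of 998) lay in a muscle-free stretch with a median length of 189 kb, measured between the nearest muscle peaks of any library. The median gap between neighbouring muscle peaks, all 5 libraries joined, was 2600 bp. A window of 100 kb without a muscle peak largely sets the length of the muscle-free stretch, so this contrast describes the choice. Gaps of at least 200 kb numbered 611, of which 411 (67.3%) contained a chosen window, and in 514 every adipose library had a peak inside.

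The longest runs showed that adipose libraries could differ widely over the same stretch. On chromosome 17 at 38900001 to 39400000 adipose replicates 1 to 5 had 52, 38, 12, 46 and 71 peaks (43.8 ± 21.5, SD, n = 5) inside a muscle-free stretch of 909 kb. There the highest library had 5.92 times the peaks of the lowest, which was adipose replicate 3. On chromosome 19 at 45200001 to 45700000 they had 44, 26, 41, 39 and 26, and adipose replicate 3 was among the higher ones. On chromosome 16 at 17700001 to 18200000 they had 15, 35, 23, 19 and 43, the sparsest of the named runs at 5.4 peaks per window. Runs of 4 windows followed on chromosome 18 at 45300001 to 45700000, with 52, 43, 27, 42 and 63 peaks, and on chromosome 14 at 52800001 to 53200000, with 39, 39, 22, 52 and 54. The muscle-free stretch around the runs on chromosomes 19 and 18 (525 kb and 416 kb) was hardly longer than the run, so muscle peaks resumed at its edges.

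Around the chosen windows muscle peaks stayed sparse for at least 1000 kb, while the density of adipose peaks ranged from below to about each library's own mean. In the windows directly beside them (100 kb away) a muscle library had 1.09 ± 0.283 peaks (SD, n = 5), against 6.55 ± 0.349 over all windows, a ratio of 0.165. The ratio was 0.461 at 500 kb and 0.590 at 1000 kb. Adipose libraries had 7.93 ± 1.18 peaks at 100 kb, 0.852 of their mean over all windows, and reached 0.938 at 500 kb and 0.963 at 1000 kb. Adipose replicate 3 was the lowest, at 0.679, 0.799 and 0.856 of its own mean at these 3 distances, and adipose replicate 4 the highest at 0.998, 1.05 and 1.05. The neighbours include other chosen windows, and the profile is a description without a test. Adipose peaks in the chosen windows lay at a median distance of 65.4 ± 0.999 kb from the nearest muscle peak, and 10% of them lay beyond 131 ± 2.26 kb (SD, n = 5). A window of 100 kb without a muscle peak largely sets this distance, so it is a description of the choice.

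**Figure D2:**
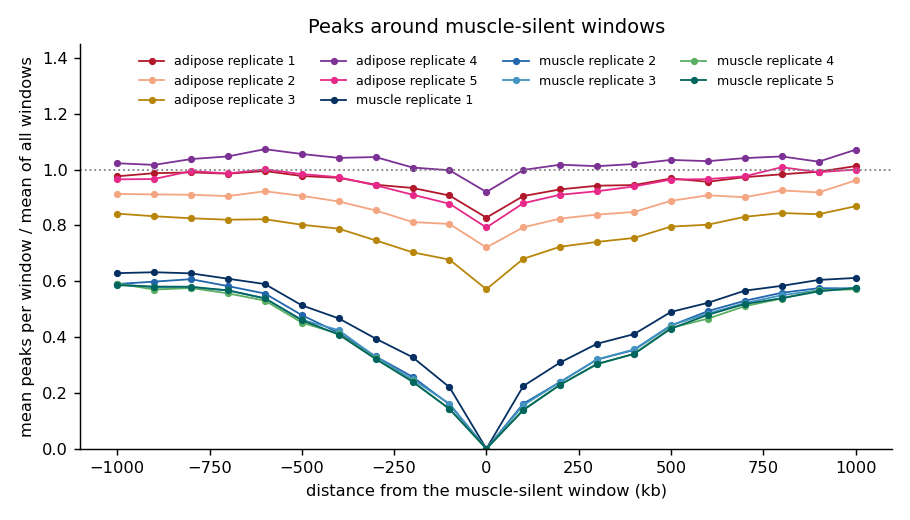
Mean number of peaks per 100-kb window, divided by the library's mean over all windows of chromosomes 1 to 20 (vertical axis), against the distance in kb from the muscle-silent window (horizontal axis), 1 line per library. Muscle lines climb from 0 at the centre, where the choice fixes them, to about 0.590 at 1000 kb, and adipose lines dip at the centre to between 0.571 and 0.920.

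Chromosomes differed in their share of muscle-silent windows with adipose peaks. The share was highest on chromosome 16 (90 of 907 windows, 9.92%), chromosome 14 (103 of 1155, 8.92%) and chromosome 13 (79 of 1141, 6.92%). It was lowest on chromosome 10 (23 of 1126, 2.04%), chromosome 7 (37 of 1458, 2.54%) and chromosome 12 (14 of 528, 2.65%). Chromosomes 10 and 12 did not lack windows silent in muscle. They had 159 and 75, but only 14.5% and 18.7% of those had a peak in every adipose library, and 119 and 47 had peaks in 1 to 4 adipose libraries. On the other chromosomes the corresponding share lay between 38.5% (chromosome 1) and 80.4% (chromosome 18). The chosen windows of chromosomes 10 and 12 were also thin, with 3.12 and 3.30 adipose peaks per window and library, against 8.40 on chromosome 16 and 8.51 on chromosome 14. Chromosomes 10 and 12 had the most muscle peaks per window of all chromosomes (9.66 and 8.79) and the fewest adipose peaks (7.91 and 7.38). These values were not tested.

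**Figure D3:**
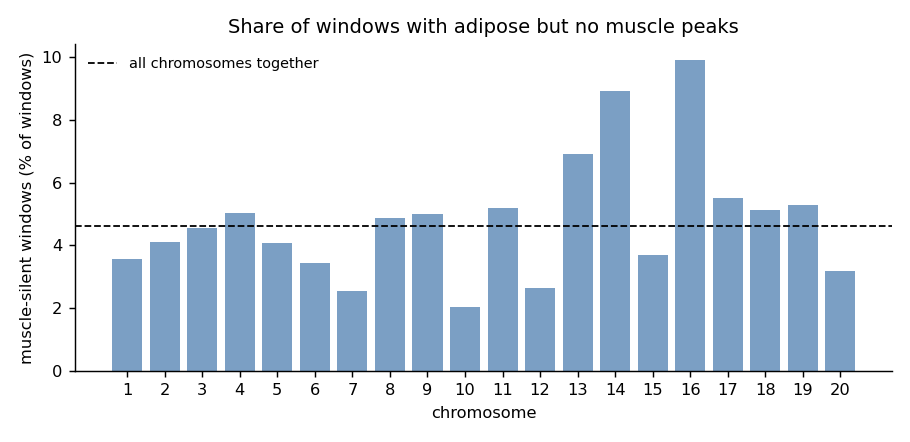
Share of 100-kb windows with no muscle peak and a peak in every adipose library (vertical axis, percent of the chromosome's windows) by chromosome, with the share over all 20 chromosomes (4.63%) as a dashed line. Chromosomes 14 and 16 stand at 8.92% and 9.92%, and chromosome 10 at 2.04%.

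Adipose peaks in muscle-silent windows were narrow and weak. Their median width was 213, 219, 206, 257 and 228 bp in adipose replicates 1 to 5, and in windows with peaks in all 10 libraries it was 256, 297, 296, 311 and 297 bp. Each library had narrower peaks in the muscle-silent windows, with a mean difference of -66.8 bp (224.6 ± 19.8 against 291.4 ± 20.7 bp, SD, n = 5, two-sided exact sign-flip permutation p = 0.0625, the smallest that 5 libraries allow, adjusted p = 0.0625 over 4 measures). The shortest interval in any adipose list was 150 bp, and 13.6 ± 4.36% of the peaks had exactly that width, against 8.03 ± 2.89%. At the wide end, 10% of the peaks exceeded 438 ± 50.2 bp and 740 ± 56.8 bp respectively.

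The share of strong peaks was 5.54%, 8.48%, 10.0%, 19.7% and 10.1% in adipose replicates 1 to 5, and 26.8%, 43.3%, 45.1%, 47.4% and 43.7% in windows with peaks in all 10 libraries. It was lower in the muscle-silent windows in 5 of 5 libraries, with a difference of -30.5 percentage points (10.8 ± 5.34% against 41.3 ± 8.25%, exact sign-flip permutation p = 0.0625, adjusted p = 0.0625). Adipose replicate 4, whose list ended at the highest −log10 p (4.27), had the highest share and adipose replicate 1, whose list ended lowest (3.26), the lowest share. The part of the list end in this order was not tested. By the authors' fold enrichment, the median peak stood at percentile 41.7 ± 3.35 of its own list in muscle-silent windows and at 56.0 ± 1.83 in windows with peaks in all 10 libraries, lower in 5 of 5 libraries (exact sign-flip permutation p = 0.0625, adjusted p = 0.0625). With only 5 libraries none of the 4 measures could pass an adjusted threshold of 0.05.

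At least 1 strong peak was present in 418, 446, 477, 893 and 568 of the 1212 windows in adipose replicates 1 to 5. Adipose replicate 4 was well above the others. In 84 windows (6.93%) every adipose library had a strong peak, and in 102 (8.42%) none had. Over all windows with a strong peak in any library, 4.34% had more strong peaks in every adipose library than in any muscle library. The choice used this contrast, so the values are given without a reading.

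Windows with a few muscle peaks had adipose peaks of similar width and strength. Among windows with peaks in every adipose library, those with a peak in 1, 2, 3 or 4 muscle libraries had median widths of 227 ± 20.6, 230.0 ± 20.9, 232 ± 19.7 and 234 ± 17.2 bp (SD, n = 5 adipose libraries). Their strong shares were 10.9 ± 6.24%, 11.6 ± 6.80%, 13.0 ± 6.37% and 17.2 ± 6.04%. The 291.4 bp and 41.3% were reached in windows with a peak in all 5 muscle libraries. Set against the 5370 windows with 1 to 5 muscle peaks in all, the muscle-silent windows had peaks with a difference in width of -4.0 ± 2.92 bp (narrower in 4 libraries and equal in 1, exact sign-flip permutation p = 0.125, adjusted p = 0.167). The strong share differed by -1.03 ± 0.984 percentage points (lower in 5 of 5, exact sign-flip permutation p = 0.0625, adjusted p = 0.125). The median percentile was higher by 1.34 ± 1.92 (higher in 2 libraries and equal in 3, exact sign-flip permutation p = 0.500, adjusted p = 0.500). In adipose replicates 1, 2 and 3 the median peak of both sets had the same fold enrichment (3.00, 2.88 and 2.92), a value that several peaks shared.

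**Figure D4:**
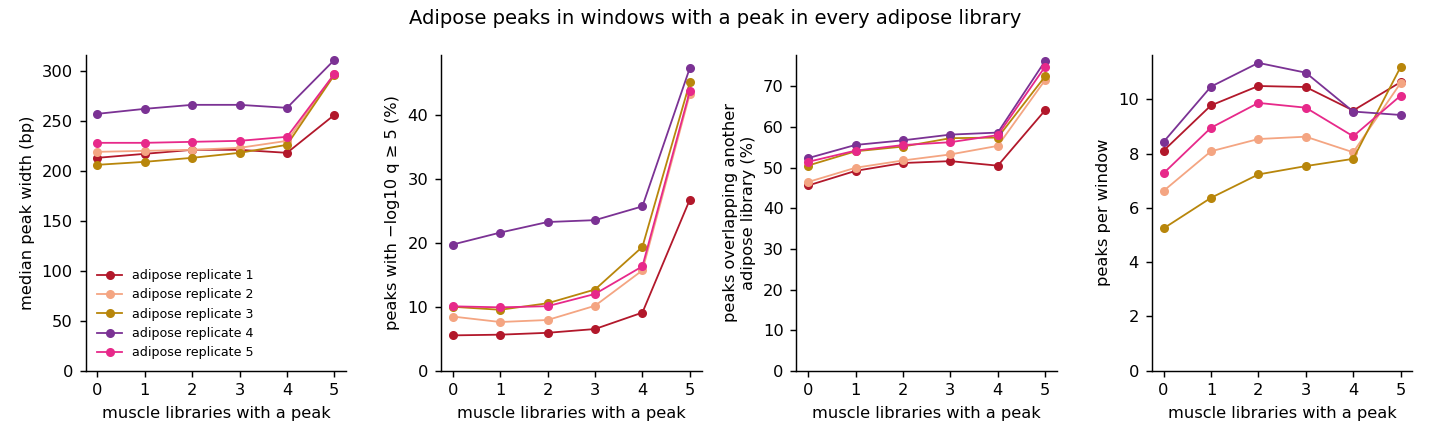
Windows with a peak in every adipose library, arranged by the number of muscle libraries with a peak there (horizontal axis; 0 is the muscle-silent set), with 1 line per adipose library for median peak width in bp, share of strong peaks (−log10 q of 5 or more), share of peaks overlapping one of another adipose library, and peaks per window. The first 3 measures change little from 0 to 3 muscle libraries and step up at 5, where width reaches 291.4 ± 20.7 bp (SD, n = 5).

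Positions in muscle-silent windows recurred less between adipose libraries than positions in windows with peaks in all 10 libraries. In adipose replicates 1 to 5, 45.6%, 46.5%, 50.5%, 52.3% and 51.4% of the peaks overlapped a peak of at least 1 other adipose library by 1 bp or more. In windows with peaks in all 10 libraries these shares were 64.1%, 71.6%, 72.5%, 76.3% and 74.9%. The share was lower in the muscle-silent windows in 5 of 5 libraries, with a difference of -22.6 ± 2.53 percentage points (49.3 ± 3.04% against 71.9 ± 4.71%, SD, n = 5, exact sign-flip permutation p = 0.0625, adjusted p = 0.0625). Overlap rises with the sequence that peaks cover and with the width of the peaks, which was greater in windows with peaks in all 10 libraries. The other 4 adipose libraries together covered 6.23 ± 0.294% of the muscle-silent windows and 8.27 ± 0.120% of the windows with peaks in all 10. Among the 50000 strongest peaks of each list, with windows chosen on those peaks, the difference shrank to -5.54 percentage points. Set against windows with 1 to 5 muscle peaks it was -3.80 ± 0.440 (lower in 5 of 5 libraries, exact sign-flip permutation p = 0.0625, adjusted p = 0.125). The other 4 adipose libraries covered 7.65 ± 0.336% of those windows, also more than of the muscle-silent ones.

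Between single libraries, the share of one library's peaks that met a peak of another ran from 13.3% to 28.7% in the muscle-silent windows, with a median of 20.1% over 20 ordered pairs. In windows with peaks in all 10 libraries it ran from 45.2% to 60.8%, so the ranges did not overlap. The highest value was that of adipose replicate 5 peaks met by adipose replicate 4 (28.7%), and the lowest that of adipose replicate 1 peaks met by adipose replicate 3 (13.3%), the library with the fewest peaks in these windows.

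Merged where they overlapped, the adipose peaks of the muscle-silent windows formed 30215 regions. Peaks were joined in a chain, so the peaks of a region need not all overlap each other. A single library accounted for 21938 of them (72.6%). Regions of 2, 3 and 4 libraries numbered 5413, 1886 and 710, and 268 (0.887%) held a peak of all 5 libraries. In windows with peaks in all 10 libraries 13.6% of the regions were of all 5 adipose libraries, and 59.3% were of 1. There were 18.1 single-library regions in a muscle-silent window and 14.7 in a window with peaks in all 10 libraries, but 0.221 and 3.37 regions of all 5.

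Width and strength rose with recurrence inside the muscle-silent windows. Peaks in regions of 1 library had a median width of 201.4 ± 11.9 bp and were strong in 5.75 ± 3.79% of cases (SD, n = 5 libraries). Over regions of 2, 3 and 4 libraries the median width was 236 ± 25.8, 270.0 ± 34.4 and 304.5 ± 42.4 bp and the strong share 10.9 ± 5.54%, 15.4 ± 7.07% and 22.3 ± 9.51%. In regions of all 5 libraries they were 361 ± 42.3 bp and 39.3 ± 10.5%, and the median percentile of fold enrichment was 64.5 ± 3.36, against 38.5 ± 3.01 in regions of 1 library. The order held within each library for regions of 5 against regions of 1, and it was not tested. A wider peak meets peaks of other libraries more readily, so width and recurrence are tied by the way regions were joined. How far this sets the rise in width was not tested. Regions of all 5 libraries took 3.56 ± 0.681% of a library's peaks in these windows and regions of 1 took 50.7 ± 3.05%.

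**Figure D5:**
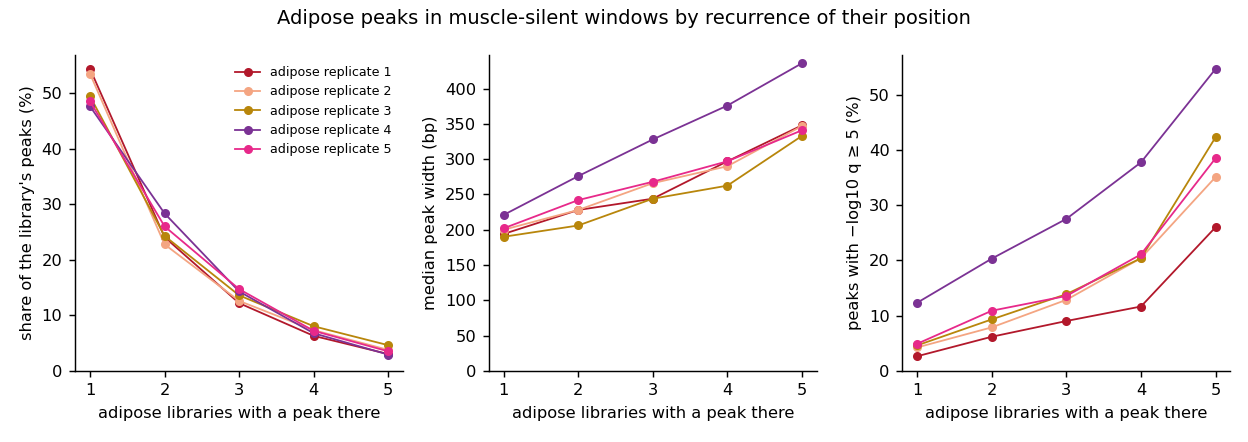
Adipose peaks of the muscle-silent windows by the number of adipose libraries with a peak in the same merged region (horizontal axis), with 1 line per library for the share of its peaks in percent, their median width in bp and the share with a −log10 q of at least 5. From 1 to 5 libraries the mean share falls from 50.7% to 3.56%, while width rises from 201.4 to 361 bp and the strong share from 5.75% to 39.3%.

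The 268 regions of all 5 adipose libraries lay in 233 of the 1212 windows (19.2%), and none was touched by a muscle peak reaching in from a neighbouring window. Chromosomes 1 to 20 held 5793 regions with a peak in all 5 adipose libraries and none in muscle, and 4.63% of them were in the muscle-silent windows. That equals the share of windows that were muscle-silent with adipose peaks, while those windows held 3.55 ± 0.604% of the adipose peaks. The choice itself used absence in muscle and presence in every adipose library, so these shares are given without a reading. Of the 268 regions, 23 (8.58%) were strong in every adipose library, 35 in 4, 47 in 3, 64 in 2, 53 in 1 and 46 (17.2%) in none.

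The positions that ranked high in every adipose list lay outside the 10 windows named for density. The first, on chromosome 10 at 50724609 to 50725622, spanned 1014 bp with fold enrichments of 7.43, 10.4, 8.45, 7.46 and 9.25 in adipose replicates 1 to 5 (8.59 ± 1.24, SD, n = 5), as the authors' peak caller gave them. Its window held 2, 3, 3, 3 and 2 adipose peaks. It stood at percentile 95.4 or higher in each adipose list, with a −log10 q of at least 22.5, far above the level called strong.

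The next positions ranked lower. The lowest percentile was 87.6 on chromosome 8 at 92525016 to 92525584 (fold enrichment 6.22 ± 1.58), 87.3 on chromosome 16 at 4099899 to 4100789 (6.02 ± 1.50) and 86.3 on chromosome 17 at 24953128 to 24953798 (5.05 ± 0.482). The position on chromosome 17 had the most even values, from 4.54 in adipose replicate 1 to 5.68 in adipose replicate 5. It lay in a window with 7, 7, 6, 6 and 9 peaks. Chromosome 3 at 70661970 to 70662442 had the shortest of the 10 named regions, 473 bp, and values from 4.98 to 9.68, the highest in adipose replicate 2.

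The other named positions kept a percentile of at least 80.0 in every list. They were on chromosome 1 from 223559215 to 223559909 (fold enrichment 5.46 ± 1.23), on chromosome 11 from 22733148 to 22733852 (6.72 ± 2.16) and on chromosome 10 from 21266189 to 21267260 (6.09 ± 1.69). The last 2 were on chromosome 13 from 84982658 to 84983330 (4.87 ± 0.552) and on chromosome 12 from 32222965 to 32223914 (5.22 ± 0.779). All 10 named positions were strong in all 5 adipose libraries. The positions on chromosomes 10, at 21266189, and 12 were in windows with between 1 and 5 adipose peaks per library. None of the 10 was in a window named above for its density of peaks. Those were only 10 of the 1212 windows, and 4 of them held no region of all 5 adipose libraries. The lack of overlap therefore carries little information.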

How the data were processed

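Peak lists of 10 ATAC-seq libraries, made from about 75000 nuclei each per the labels' protocols, were analysed. Per the submitters' processing notes the build was rn6, and the tools named are Bowtie2, MACS2, Picard, Trimmomatic and FastQC, with no version or setting. How duplicates and the transposase offset were treated is likewise not given in these sources. The deposited lists are in narrowPeak layout, 1 per library. Each deposited row holds a score, a fold enrichment at the summit, and −log10 p and −log10 q, all by the authors; the score was not used. Rows with the same chromosome, start and end were joined to 1 peak with its highest values.

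Windows of 100 kb, midpoints and 1 bp overlap were used. Window classes were compared within each adipose library by two-sided exact sign-flip permutation tests over the library differences, with Benjamini-Hochberg adjustment over 4 measures. The named windows are the 10 with the highest minimum over the adipose libraries, the named runs the 5 longest (ties in both by the sum of adipose peaks), and the named positions the 10 with the best worst percentile of fold enrichment. The windows, measures and lists were chosen with earlier results of these data known. Alternatives changed the threshold, the list length, the grid, the window size, the assignment, the overlap, the comparison windows and the libraries. The window code was tested on simulated data with planted windows. The tools were pandas 2.3.3, NumPy 2.4.6, SciPy 1.17.1 and matplotlib 3.10.9 under Python 3.11.15. Genes and sequences were not analysed here, since the tables at hand are for another assembly.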

Additional observations from a re-analysis of the deposited data

Results flagged for a closer look

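The highest and lowest library were compared with their nearest neighbour in 104 sets of 5 values, covering most of the values per library behind the numbers given above. A gap of over 0.71 of the range was found for 18 values, and chance alone sets off about 1 in 20 sets. Many of the sets share peaks and are not independent.

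Among the muscle libraries, replicate 1 stood apart. It had no peak in 4061 windows, the fewest, and held 667 of the single muscle peaks just outside the choice, the most. It also had the most peaks beside the muscle-silent windows, 1.58 per window at 100 kb and 3.57 at 500 kb.

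Adipose replicate 4 was the highest in 7 sets. In the muscle-silent windows, 12.3% of its peaks in regions of 1 library were strong, and 27.5% of those in regions of 3 libraries. The median width of its peaks was 328 bp in regions of 3 libraries and 436 bp in regions of 5. In windows with a peak in 1 and in 2 muscle libraries its strong share was 21.6% and 23.3%, and in windows with a peak in 3 its median width was 266 bp.

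Adipose replicate 1 had the longest adipose list, with 256339 peaks. In windows with peaks in all 10 libraries it was the lowest in median width (256 bp), in the width exceeded by 10% of its peaks (641 bp) and in strong share (26.8%). In windows with 1 to 5 muscle peaks its median percentile of fold enrichment, 46.4, was the highest. It had the same median percentile in the muscle-silent windows. In adipose replicate 3 the median distance from a peak in the muscle-silent windows to the nearest muscle peak was 67.2 kb, the longest among the adipose libraries. In the window on chromosome 16 at 28200001 to 28300000, adipose replicate 2 had 18 peaks, above the 11 to 13 of the others.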

How the results depend on the processing

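Of 18 alternatives for the number of muscle-silent windows with adipose peaks, 12 stayed within 1.5 times of the 1212. The number of windows and of runs was 3255 and 2016 at a −log10 p floor of 4.27 common to all lists, 648 and 585 for strong peaks (−log10 q of 5 or more), and 717 and 626 for the 50000 strongest peaks per list. It was 4772 and 3549 with windows of 50 kb, and 208 and 184 with windows of 200 kb. Leaving out 1 library at a time gave 1241 to 2614 windows and 1024 to 1855 runs, the highest of both without muscle replicate 1. Adipose peaks per window moved to 2.17 for strong peaks, 2.34 for the 50000 strongest, 4.36 with 50 kb and 10.6 with 200 kb, and lay between 6.72 and 8.07 with single libraries left out. Fewer peaks and other window lengths shift these numbers by construction. On average over the adipose libraries, width, strong share and recurrence stayed lower in the muscle-silent windows in every alternative run, but the size depended on the comparison windows. With single libraries left out the differences lay between -73.0 and -61.5 bp, between -32.8 and -29.4 percentage points, and between -29.0 and -20.4 percentage points. The median percentile, between -16.0 and -13.0 with libraries left out, turned to 1.34 against windows with 1 to 5 muscle peaks. There adipose replicates 1, 2 and 3 had equal medians, and the cause was not tested. Against the same windows, width, strong share and recurrence differed by only -4.0 bp, -1.03 and -3.80 percentage points. For the 50000 strongest peaks the strong share could not be compared, since all were strong. No paired analysis was possible because the muscle libraries have no peak in the chosen windows by the choice. This leaves no tested difference between the tissues to block by the rat numbers that their labels share. Adipose replicates 2, 3 and 4 had 0, 0 and 1 peaks on chromosome Y, and muscle replicates 2, 3 and 4 had 17, 24 and 24. Whether a shared number means the same animal was not tested. The tests compare window classes within each adipose library. The lists' ends and the unknown read depth limit what silence means.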

Other observations

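Chromosome X, which the choice of windows left out, had 160 of 1600 windows (10.0%) with no muscle peak and a peak in every adipose library, against 4.63% on chromosomes 1 to 20. Muscle was silent in 749 windows of chromosome X. Of these, 658, 606 and 658 had a peak in adipose replicates 2, 3 and 4 (87.9%, 80.9% and 87.9%), and 302 and 369 in adipose replicates 1 and 5 (40.3% and 49.3%). In the 2258 windows of chromosomes 1 to 20 that were silent in muscle, adipose replicates 1 to 5 had a peak in 75.0%, 68.8%, 67.6%, 71.1% and 68.6%. The 160 windows held 1.72, 5.72, 4.14, 7.76 and 2.27 peaks per window in adipose replicates 1 to 5. Adipose replicates 2, 3 and 4 thus stood above replicates 1 and 5 on chromosome X in both measures, and the same 3 libraries had at most 1 peak on chromosome Y. What sets these libraries apart was not tested.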
